A study of Mus musculus with 6 samples.

Results

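The S100 genes encode small calcium-binding proteins of the EF-hand type, and 9 of them (S100a8, S100a9, S100a1, S100b, S100a4, S100a6, S100a10, S100a11 and S100a13) were followed here among the 34709 genes of an RNA-seq table from mouse articular cartilage. They were taken by exact gene name, each name matched 1 row, and all 9 passed the filter for testing, a mean of at least 0.5 FPKM (fragments scaled to transcript length and library size). The libraries came from aged (18-month-old) male C57BL/6J mice, with 3 libraries from knockout (KO) animals and 3 from wildtype (WT) animals. The KO mice were a purchased line, WT littermates served as controls by the study's methods, and neither group carried a treatment in the labels. The comparison of KO with WT asked how the knocked-out gene bears on expression in cartilage of old animals, and within it the S100 genes typical of myeloid cells were set against those typical of chondrocytes.

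S100 proteins bind calcium through a pair of EF-hand loops, change shape and then attach to partner proteins such as annexins. S100A8 and S100A9 join into calprotectin, which fills the cytosol of neutrophils and monocytes and, once released, acts as an alarmin through TLR4 and RAGE. S100A1 and S100B are known in cartilage as products of chondrocytes, where SOX5, SOX6 and SOX9 drive their genes, and S100B is also a familiar marker of Schwann cells. S100A4, S100A6, S100A10, S100A11 and S100A13 are made by many cell types.

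Of the 9 genes, 8 lie on chromosome 3 and S100b lies on chromosome 10 (GRCm38). S100a8 (3:90668978-90670035, plus strand) and S100a9 (3:90692632-90695721, minus strand) are neighbours in the deposited coordinates. S100a1 (3:90511034-90514392, minus strand) and S100a13 (3:90514435-90524581, plus strand) stand head to head, with RefSeq start sites 105 bases apart. S100a11 and S100a10 lie in a separate stretch that begins 2824767 bases past the end of S100a9. The 250 bases before the RefSeq start site are shown for the pairs that the comparison sets against each other and for the 2 genes with the smallest p-values, S100a6 and S100a11. These windows come from RefSeq on GRCm38.p6, whose start sites differ from the deposited gene starts for some of these genes and not for S100a9. For S100a8, S100a9, S100b, S100a6 and S100a11 capitals mark matches to motifs that were searched on both strands. The letters searched were TTNNGNAA for CEBP factors, GAGGAAGT for PU.1, ACAAT for SOX factors and TATAAA for the core element near start sites. For S100a1 capitals mark the 104 bases that its window shares with the window of S100a13.
S100a8, chr3:90668821-90669070, plus strand: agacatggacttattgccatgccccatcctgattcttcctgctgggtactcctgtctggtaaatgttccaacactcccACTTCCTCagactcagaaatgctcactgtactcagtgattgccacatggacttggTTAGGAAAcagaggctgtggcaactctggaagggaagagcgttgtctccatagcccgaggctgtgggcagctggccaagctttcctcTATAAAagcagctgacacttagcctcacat
S100a9, chr3:90695722-90695971, minus strand: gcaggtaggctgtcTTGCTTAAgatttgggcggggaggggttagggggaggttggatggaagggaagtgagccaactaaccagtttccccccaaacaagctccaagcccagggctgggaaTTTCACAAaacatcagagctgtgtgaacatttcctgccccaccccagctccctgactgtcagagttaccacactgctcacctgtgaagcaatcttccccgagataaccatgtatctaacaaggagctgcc
S100a1, chr3:90514331-90514580, minus strand: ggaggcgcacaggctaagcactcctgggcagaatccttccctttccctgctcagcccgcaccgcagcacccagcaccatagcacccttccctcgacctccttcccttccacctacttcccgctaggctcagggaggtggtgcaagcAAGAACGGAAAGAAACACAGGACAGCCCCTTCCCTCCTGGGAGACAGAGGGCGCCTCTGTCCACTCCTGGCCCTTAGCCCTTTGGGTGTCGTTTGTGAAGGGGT
S100b, chr10:76253586-76253835, plus strand: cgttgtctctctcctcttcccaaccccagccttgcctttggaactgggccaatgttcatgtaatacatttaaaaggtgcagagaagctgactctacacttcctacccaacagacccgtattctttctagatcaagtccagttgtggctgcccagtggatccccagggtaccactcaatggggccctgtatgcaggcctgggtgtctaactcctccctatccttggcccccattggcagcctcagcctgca
S100a6, chr3:90612644-90612893, plus strand: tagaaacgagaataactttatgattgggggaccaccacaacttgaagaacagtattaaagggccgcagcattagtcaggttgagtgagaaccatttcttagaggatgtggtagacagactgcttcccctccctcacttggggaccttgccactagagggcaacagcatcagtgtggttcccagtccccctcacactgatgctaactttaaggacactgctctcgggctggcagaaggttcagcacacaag
S100a11, chr3:93520246-93520495, plus strand: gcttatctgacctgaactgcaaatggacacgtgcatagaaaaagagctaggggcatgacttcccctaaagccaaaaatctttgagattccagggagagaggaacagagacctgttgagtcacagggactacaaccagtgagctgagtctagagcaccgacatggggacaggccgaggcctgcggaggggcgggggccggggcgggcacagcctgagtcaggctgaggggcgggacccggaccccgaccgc

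The S100a8 window held TATAAA from 30 to 25 bases before the start site, 1 CEBP match (TTAGGAAA) and 1 PU.1 match (ACTTCCTC, the reverse strand). The S100a9 window held 2 CEBP matches (TTGCTTAA and TTTCACAA). The windows of S100a1, S100b, S100a6 and S100a11 held none of these letters. Of the windows not shown, that of S100a4 held TATAAA and 2 SOX matches (ATTGT), and that of S100a13 held none. Of the 8 members with a window, 2 had a CEBP match, 1 a PU.1 match, 1 a SOX match and 2 TATAAA. Among 32536 promoter windows of the same length, 12.3% held TATAAA, 36.8% the CEBP letters, 2.45% the PU.1 letters and 27.4% the SOX letters. A match describes the letters of a window and not a bound site.

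Total counts ranged from 52268311 to 63331135 per library. KO replicates 2 and 3 differed from each other by 5.82 times the variance that Poisson sampling gives, against 24.3 to 86.9 times for the 14 other pairs of libraries. This pair differed by more than sampling noise but by far less than any other, and as a precaution it was counted as 1 sample through its mean, which left 2 KO and 3 WT samples. On the first principal component (48.4% of the variance) the library labelled KO replicate 1 lay at 13.5, beside the WT libraries (16.1 to 20.2) and away from KO replicates 2 and 3 (-33.9 and -33.8). Results are therefore given with and without that library. The labels do not say that the libraries came from separate animals, so the p-values measure the spread between these samples, which may be technical.

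Chondrocyte markers were present in every library, but the tissue also held much RNA of blood and marrow cells. The 15 chondrocyte markers summed to 663 to 1475 FPKM over the 6 libraries, with Prg4 (lubricin) and Chad (chondroadherin) highest, and Matn1 and Matn3 were at 0 in at least 1 library. The 16 neutrophil and granulocyte precursor markers summed to 11340 to 22688 FPKM. In bulk tissue fewer cells of a type and less RNA per cell cannot be told apart.

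S100a9 and S100a8 stood at the top of the S100 order in every sample. By mean FPKM over the 5 samples the order was S100a9 (18923), S100a8 (10830), S100a11 (681), S100a6 (182), S100a4 (145), S100a10 (91.9), S100a1 (51.0), S100a13 (42.3) and S100b (14.1), and each neighbouring pair kept its order in 5 of 5 samples. The mean of S100a8 was 15.9 times that of S100a11, and their ranges did not overlap. S100a11 and S100a6, S100a10 and S100a1, and S100a13 and S100b were also apart over the samples. The ranges of S100a9 and S100a8, S100a6 and S100a4, S100a4 and S100a10, and S100a1 and S100a13 overlapped. S100a8 and S100a9 together took 2.89%, 2.20% and 2.26% of all counts in KO replicates 1 to 3 and 1.20%, 2.09% and 1.38% in WT replicates 1 to 3.

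**Figure D1:**
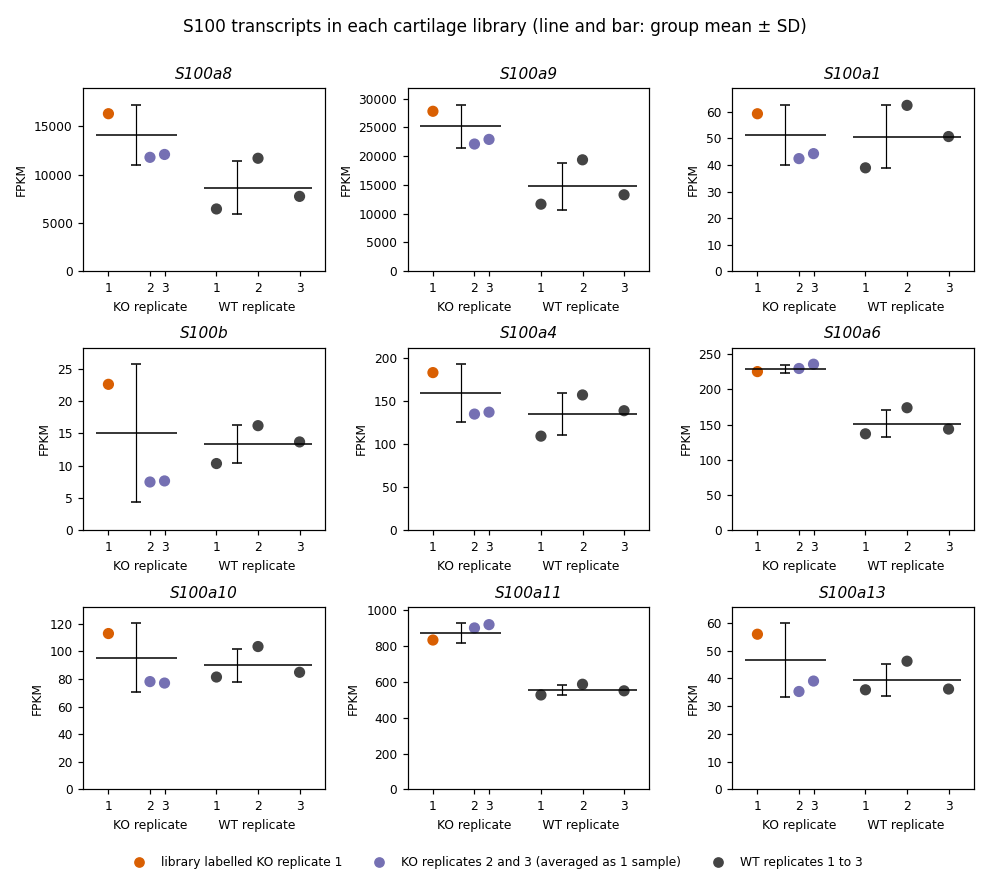
FPKM of each of the 9 S100 genes (vertical axes, linear and starting at 0, scaled separately by gene) in the 3 KO and 3 WT libraries. Points are libraries, lines and bars are the mean ± SD of 2 KO samples (KO replicates 2 and 3 averaged) and of 3 WT samples. S100a8, S100a9, S100a6 and S100a11 were higher in every KO library than in every WT library. The point of KO replicate 1 was the highest of all 6 libraries for 6 of the 9 genes.

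None of the 9 genes passed an adjusted p of 0.05 in edgeR's quasi-likelihood test, where 0% of the 15424 tested genes did (lowest adjusted p = 0.106). All 9 had a fitted log2 difference (KO minus WT) above 0, with a median of 0.27 against -0.02 over all tested genes. At an unadjusted p under 0.05 there were 2 of the 9, S100a6 and S100a11, both higher in KO, beside 7.61% of all tested genes that were higher at that p. DESeq2 called the same 2 genes at an adjusted p under 0.05, where it called 3.44% of genes higher in KO, and limma on log2 FPKM called none. The KO samples lay wholly above the WT samples for 4 of the 9 genes (S100a8, S100a9, S100a6 and S100a11) and for 12.4% of all tested genes. Without the library labelled KO replicate 1, 4 of the 9 differences were above 0 and 5 below it, with a median of -0.03. None of the 9 was then called, where 2.27% of all genes were. This fit holds 1 KO sample, which is assumed to vary like the WT samples. A further fit, added after the data were seen, left out KO replicate 1. It counted KO replicates 2 and 3 as 2 samples, although they differed far less than any other pair. It called S100a11 and S100a6 higher and S100b lower in KO (adjusted p = 0.00575, 0.0264 and 0.0326) beside 21.9% of all genes.

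**Figure D2:**
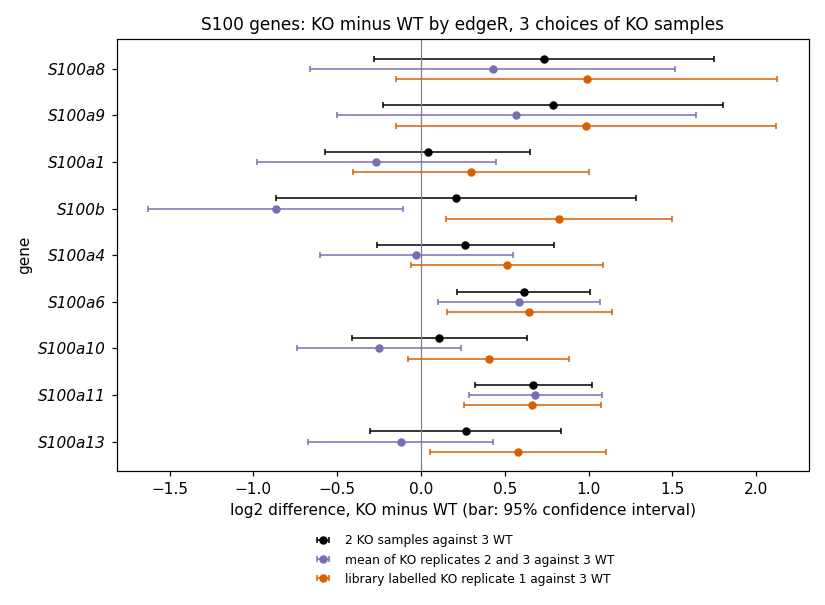
Log2 difference KO minus WT (horizontal axis) with its 95% confidence interval for the 9 S100 genes by edgeR, for the 2 KO samples, for the mean of KO replicates 2 and 3 alone and for the library labelled KO replicate 1 alone, each against 3 WT samples. S100a11 and S100a6 stayed between 0.58 and 0.68 under all 3 choices, and S100b moved from -0.87 to 0.83.

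Among the myeloid genes, S100a9 was at 27817 FPKM in the library labelled KO replicate 1, while KO replicates 2 and 3 gave 22113 and 22919 and WT replicates 1 to 3 gave 11637, 19366 and 13276. Every KO library was above every WT library, and WT replicate 2 stood nearest to the KO range. The mean was 25167 ± 3748 FPKM in KO (SD, n = 2 samples) and 14760 ± 4073 in WT (SD, n = 3), a ratio of 1.71. The edgeR log2 difference was 0.79 ± 0.43 (SE), and its interval of -0.23 to 1.80 included 0 (adjusted p = 0.495). DESeq2 on the same 5 samples gave 0.80 ± 0.28 (adjusted p = 0.0586). With KO replicate 1 left out the edgeR difference was 0.57.

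S100a8 followed S100a9 closely, at 16321 FPKM in the library labelled KO replicate 1, while KO replicates 2 and 3 gave 11795 and 12094 and WT replicates 1 to 3 gave 6440, 11699 and 7744. The groups were apart only by the small gap between KO replicate 2 and WT replicate 2. The log2 difference was 0.73 ± 0.43 (adjusted p = 0.538), on means of 14133 ± 3095 and 8627 ± 2738 FPKM. Leaving out KO replicate 1 took it to 0.43 (adjusted p = 0.632). The ratio of S100a9 to S100a8 in FPKM stayed between 1.66 and 1.895 in the 6 libraries.

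The neutrophil and granulocyte precursor markers were higher in KO beside this pair. Their sum was 22688, 22349 and 22516 FPKM in KO replicates 1 to 3 and 11340, 15976 and 12299 in WT replicates 1 to 3, and the KO and WT libraries did not overlap. All 16 markers had a higher fitted value in KO, and none was at 0 in any library. At an unadjusted p under 0.05 there were 13, beside 7.61% of all tested genes that were higher at that p. None passed an adjusted p of 0.05. Ngp and Camp, both encoding proteins of neutrophil secondary granules, were the most abundant. Ngp was at 7517 ± 40.9 FPKM in KO and 4227 ± 668 in WT, and Camp at 5005 ± 1655 and 3194 ± 1042. Divided by the sum of this list, S100a8 plus S100a9 came to 1.95 in the library labelled KO replicate 1 and 1.54 in the mean of KO replicates 2 and 3. The WT values of that ratio were 1.59, 1.94 and 1.71, and the KO samples lay at both edges of the WT range. The part of these markers in the S100a8 and S100a9 values was not tested.

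By profile over the 5 samples (centred log2 CPM, root mean square difference, 7576 genes compared), the genes nearest to S100a8 were Lyz2 (0.06), S100a9 (0.07), Orm1 (0.07), Camp (0.09) and Arl11 (0.09), where the median gene was at 0.53. Those nearest to S100a9 were Ly6g (0.05), Orm1 (0.06), S100a8 (0.07), Arl11 (0.08) and AA467197 (0.08), with a median gene at 0.51. Lyz2 encodes the lysozyme of myeloid cells and Ly6g is the standard surface marker of mouse neutrophils. The 5 samples share their libraries and depth, so these distances are a description.

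The chondrocyte genes gave no such pattern. S100a1 was at 59.3 FPKM in the library labelled KO replicate 1, while KO replicates 2 and 3 gave 42.4 and 44.3 and WT replicates 1 to 3 gave 38.9, 62.5 and 50.7. The libraries of the groups were interleaved, and the means were 51.3 ± 11.3 FPKM in KO and 50.7 ± 11.8 in WT. The log2 difference of S100a1 was 0.04 with an interval of -0.57 to 0.65 (edgeR, adjusted p = 0.980), and -0.27 without KO replicate 1 (adjusted p = 0.650).

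S100b, the lowest of the 9 genes, was at 22.6 FPKM in the library labelled KO replicate 1, while KO replicates 2 and 3 gave 7.46 and 7.63 and WT replicates 1 to 3 gave 10.3, 16.2 and 13.7. The WT libraries lay between the KO libraries, with KO replicate 1 above all of them and KO replicates 2 and 3 below. The mean was 15.1 ± 10.6 FPKM in KO and 13.4 ± 2.94 in WT, and the log2 difference was 0.21 with an interval of -0.86 to 1.28 (edgeR, adjusted p = 0.917). Its direction depended on the samples and the fit. The difference was -0.87 without KO replicate 1 and 0.83 with KO replicates 2 and 3 left out. With KO replicate 1 kept, it was -0.071 with the 6 libraries as labelled and -0.011 by limma on log2(FPKM + 0.1). Of 16 alternatives, 5 reversed its sign and 11 kept it. S100b overlaps Dip2a on the opposite strand over 1731 bases. By the study's methods the libraries were strand-specific, but the sources used here do not say whether the counting used strand. Reads of these genes may therefore not be fully separated.

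The sum of the chondrocyte markers was likewise highest in the library labelled KO replicate 1, where Prg4 alone gave 1034 FPKM, and 9 of the 15 markers were highest there. Their sum was 1475 FPKM there, while KO replicates 2 and 3 gave 670 and 679 and WT gave 663, 878 and 785. Of the 15 markers 12 were tested, 7 were higher and 5 lower in KO, and none passed an unadjusted p of 0.05. Per unit of that sum, S100a1 plus S100b came to 0.0555 in KO replicate 1 and 0.0755 in the mean of KO replicates 2 and 3, against 0.0742, 0.0896 and 0.0820 in WT. The Schwann cell markers, another known source of S100b, summed to 11.3 to 16.04 FPKM over all libraries. Their part, and that of the chondrocyte markers, in the S100b values was not tested.

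S100a1 and S100b did not keep a fixed ratio, unlike S100a9 and S100a8. S100a1 was 2.63 times S100b in FPKM in the library labelled KO replicate 1, while the ratio was 5.68 and 5.80 in the other KO libraries and 3.77, 3.86 and 3.71 in WT. The nearest profiles to S100b were those of Omd (0.03), Dusp1 (0.12), Ccn2 (0.13), Tnfrsf11b (0.13) and Anxa8 (0.14), with the median gene at 0.62. Omd encodes osteomodulin, a small leucine-rich protein of mineralised matrix, and it was at 37.8 FPKM in KO replicate 1, 13.2 in the mean of KO replicates 2 and 3 and 17.2 to 26.6 in WT. Among the nearest profiles to S100a1 were those of Ndufb11 (0.02), Tmem256 (0.03), Rps16 (0.04) and Dnajc24 (0.04), with the median gene at 0.36. Rps16 encodes a ribosomal protein and Ndufb11 a subunit of respiratory complex I.

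Set against each other, the mean log2 FPKM of S100a8 and S100a9 exceeded that of S100a1 and S100b by 9.19 in the library labelled KO replicate 1, by 9.82 in the mean of KO replicates 2 and 3, and by 8.75, 8.89 and 8.59 in WT. Both KO samples were above all WT samples. The gap was 9.51 ± 0.45 in KO (SD, n = 2) and 8.74 ± 0.15 in WT (SD, n = 3), a difference of 0.76 on the log2 scale. On the edgeR differences the same contrast was 0.64. It was 1.06 without KO replicate 1 and 0.42 with KO replicates 2 and 3 left out. The 2 KO samples came to it in different ways, since both myeloid genes were highest in KO replicate 1 while S100b was lowest in KO replicates 2 and 3. The contrast was not tested, because its genes were chosen with results of these data known.

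**Figure D3:**
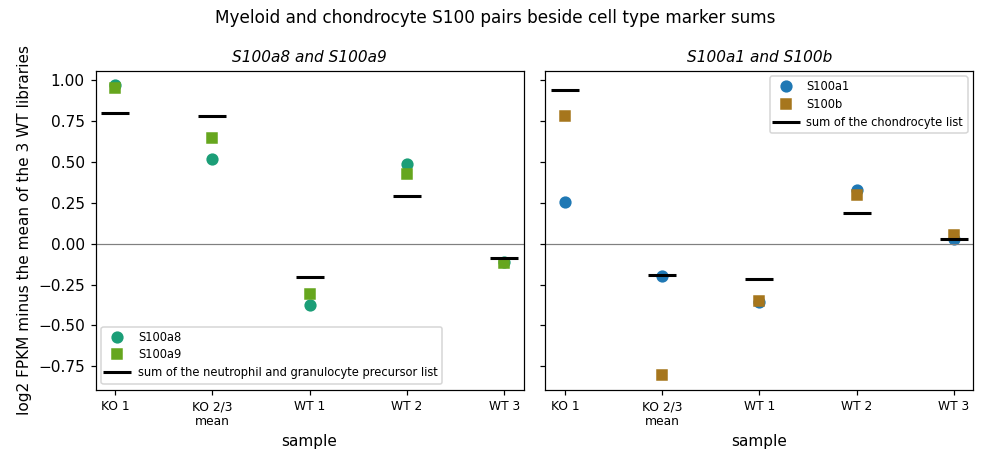
Log2 FPKM minus the mean of the 3 WT libraries (vertical axis) in the 5 samples, for S100a8 and S100a9 beside the sum of the neutrophil and granulocyte precursor list, and for S100a1 and S100b beside the sum of the chondrocyte list. Both KO samples were above the WT samples for S100a8, S100a9 and the neutrophil sum, whereas S100b was highest in KO replicate 1 and lowest in the mean of KO replicates 2 and 3.

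Among the widely expressed genes, S100a11 had the smallest p-value of the 9. It was at 832 FPKM in the library labelled KO replicate 1, while KO replicates 2 and 3 gave 900 and 918 and WT replicates 1 to 3 gave 526, 586 and 550. All KO libraries lay together, well above all WT libraries. The mean was 871 ± 54.1 FPKM in KO and 554 ± 30.1 in WT, a ratio of 1.57, and the log2 difference was 0.67 ± 0.15 with an interval of 0.32 to 1.02 (edgeR, unadjusted p = 0.00265, adjusted p = 0.169). The value was 0.68 without KO replicate 1 (adjusted p = 0.086) and 0.66 with KO replicates 2 and 3 left out. With the 6 libraries counted as labelled it was 0.67 (adjusted p = 0.0358), the only one of the 9 genes called there, where 2.46% of genes were called higher. S100A11 is known as a partner of annexin A1.

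S100a6, which encodes calcyclin, showed a like pattern at a lower level. It was at 225 FPKM in the library labelled KO replicate 1, while KO replicates 2 and 3 gave 229.6 and 236 and WT replicates 1 to 3 gave 137, 174 and 144, with no overlap between the groups. The mean was 229 ± 5.27 FPKM in KO and 151 ± 19.7 in WT, a ratio of 1.51. The log2 difference was 0.61 ± 0.17 with an interval of 0.22 to 1.01 (edgeR, unadjusted p = 0.00813, adjusted p = 0.202). It was 0.58 without KO replicate 1 (adjusted p = 0.171), and 0.60 (adjusted p = 0.0540) with the 6 libraries as labelled.

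S100a4, S100a10 and S100a13 did not share this. S100a4, a gene of motile and fibroblastic cells, was at 184 FPKM in the library labelled KO replicate 1, while KO replicates 2 and 3 gave 135 and 138 and WT gave 109.6, 158 and 139. S100a10, which encodes the annexin A2 partner p11, was at 113, 78.02 and 77.0 FPKM in KO replicates 1 to 3 and 81.3, 103 and 84.7 in WT. S100a13, known for a part in FGF1 release, was at 55.9, 35.3 and 39.1 FPKM in KO replicates 1 to 3 and 35.9, 46.2 and 36.2 in WT. For each of these genes KO replicate 1 was the highest library and KO replicates 2 and 3 lay within or below the WT range. Their log2 differences were 0.26, 0.11 and 0.27 (edgeR, adjusted p = 0.707, 0.906 and 0.731), and -0.03, -0.25 and -0.12 without KO replicate 1.

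The other 7 S100 genes listed were mostly scarce, and only S100a16 and S100a7a were tested. S100a16 was at 11.999 FPKM in the library labelled KO replicate 1, while KO replicates 2 and 3 gave 5.13 and 4.39 and WT gave 14.4, 13.6 and 12.5. Its log2 difference was -0.64 (edgeR, adjusted p = 0.538), and -1.53 without KO replicate 1 (adjusted p = 0.0357). S100a7a was at 0.75 ± 0.48 FPKM in KO and 0.65 ± 0.15 in WT. S100a5, S100a14, S100g and S100z were at 0 in at least 1 library and were named for that.

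Of the 6 receptor genes for S100 proteins, 4 were higher and 2 lower in KO. None passed an adjusted p of 0.05, and 1 had an unadjusted p under 0.05, beside 2110 of the 15424 tested genes in either direction. That gene was Cd36, a scavenger receptor that is abundant in fat and endothelium, at 19.4, 12.1 and 13.02 FPKM in KO replicates 1 to 3 and 36.3, 29.4 and 42.7 in WT (log2 difference -1.14, edgeR adjusted p = 0.169). The difference of Cd36 was -1.55 without KO replicate 1. It passed the threshold with the 6 libraries as labelled (edgeR, adjusted p = 0.0371), beside 570 of 15373 tested genes in either direction. It also passed in DESeq2 (adjusted p = 0.00132), beside 877 of 15417 tested genes in either direction. The sum of the 7 adipocyte markers was also lower in each KO library than in each WT library. It was 53.2, 20.7 and 20.4 FPKM in KO and 209, 74.3 and 136 in WT. Retn and Lep overlapped between the groups, and the part of these markers in the Cd36 value was not tested. Tlr4, the receptor for released S100A8 and S100A9, had a log2 difference of 0.36 (adjusted p = 0.494), and Bsg (basigin) one of -0.31 (adjusted p = 0.639). Without KO replicate 1 these were 0.57 and -0.64 (adjusted p = 0.165 and 0.164), and with KO replicates 2 and 3 left out 0.11 and -0.04. Ager, which encodes RAGE and was named after its values were seen, was at 2.597 ± 0.11 FPKM in KO and 2.39 ± 0.32 in WT.

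Among the 10 binding partners, 9 were tested, and 5 were higher and 4 lower in KO. At an unadjusted p under 0.05, 3 annexin genes were higher, beside 7.61% of all tested genes. Anxa1, whose product binds S100A11, was at 557, 583 and 589 FPKM in KO replicates 1 to 3 and 262, 379 and 301 in WT (log2 difference 0.88, adjusted p = 0.202). Anxa2, whose product binds S100A10, was at 136, 165 and 166 FPKM in KO and 93.1, 98.4 and 90.4 in WT (0.70, adjusted p = 0.170). Anxa11, whose product binds S100A6, was at 22.9, 31.5 and 30.0 FPKM in KO and 16.01, 14.6 and 15.5 in WT (0.82, adjusted p = 0.169). In all 3 the KO and WT libraries did not overlap, while 12.4% of all tested genes had both KO samples above all WT samples. None of the 3 passed an adjusted p of 0.05 in edgeR on the 5 samples. DESeq2 called all 3, where it called 3.44% of genes higher in KO. The fit of 6 libraries as labelled called Anxa2 and Anxa11, where 2.46% of genes were called higher. Without KO replicate 1 only Anxa11 among them passed, at 0.97 (adjusted p = 0.0357). S100a10 thus had no difference beyond its spread while Anxa2 was higher in each KO library than in each WT library, though the difference between the genes was not tested.

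**Figure D4:**
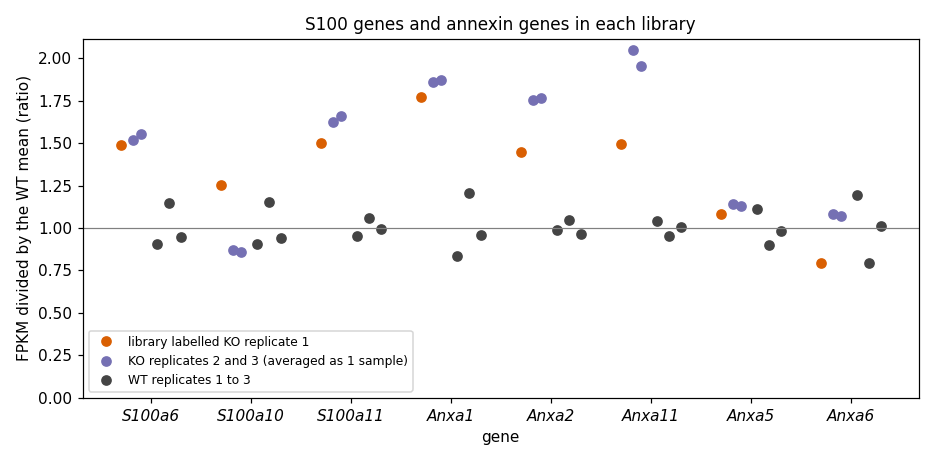
FPKM of S100a6, S100a10, S100a11 and 5 annexin genes divided by the gene's mean in WT (vertical axis, linear from 0), in each of the 6 libraries. The KO points of S100a6, S100a11, Anxa1, Anxa2 and Anxa11 were above all WT points, and those of S100a10, Anxa5 and Anxa6 overlapped them.

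Of the 7 regulator genes 6 were tested, with 3 higher and 1 lower in KO at an unadjusted p under 0.05. None passed an adjusted p of 0.05. At that unadjusted p 7.61% of all tested genes were higher in KO, and 2110 of 15424 passed in either direction. Spi1, which encodes the myeloid factor PU.1, was at 71.8, 89.1 and 90.2 FPKM in KO replicates 1 to 3 and 44.6, 51.5 and 50.7 in WT (log2 difference 0.74, edgeR adjusted p = 0.169). Cebpe, a factor of granulocyte maturation, was at 86.9, 87.8 and 82.2 FPKM in KO and 42.8, 57.8 and 46.5 in WT (0.83, adjusted p = 0.169). Sox6, one of the chondrocyte SOX factors, was at 3.40, 3.23 and 3.19 FPKM in KO and 5.39, 4.08 and 5.90 in WT (-0.60, adjusted p = 0.202). The libraries of the groups did not overlap for Spi1 or Cebpe, while 12.4% of all tested genes had both KO samples above all WT samples. Those of Sox6 did not overlap either, with KO lower, a direction whose share over all genes was not computed. The third gene above WT at that p was Cebpb (1.74, adjusted p = 0.238), which was named after its values were seen. Cebpb was at 26.8, 9.39 and 4.62 FPKM in KO replicates 1 to 3 and 3.597, 6.04 and 6.08 in WT, so that KO replicate 3 lay within the WT range, and its difference without KO replicate 1 was 0.38 (adjusted p = 0.599). Spi1, Cebpe and Sox6 passed the threshold in DESeq2, beside 877 of 15417 tested genes in either direction. They also passed with the 6 libraries as labelled, beside 570 of 15373 tested genes in either direction, and not without KO replicate 1. Sox9, also named then, was at 2.81 FPKM in the library labelled KO replicate 1, while KO replicates 2 and 3 gave 0.86 and 1.11 and WT gave 1.70, 2.26 and 1.99, so that WT lay between the KO libraries as for S100b.

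Markers of other cell types also differed between the libraries in which the S100 genes were measured. The B cell sum was 83.9 to 132 FPKM in KO and 266 to 297 in WT. Of its markers 8 of 8 were lower at an unadjusted p under 0.05, beside 2110 of the 15424 tested genes in either direction. The erythroid sum was 24898 to 60632 FPKM in KO and 71620 to 108441 in WT, and 7 of 7 markers were lower. The skeletal muscle sum was 163 FPKM in the library labelled KO replicate 1, while the other KO libraries gave 5.73 and 4.78 and WT gave 38.2 to 300.2. The monocyte and macrophage sum was 552 to 567 FPKM in KO and 466 to 542 in WT, the fibroblast sum 431 to 593 and 368 to 1059, and the endothelial sum 23.5 to 28.9 and 26.6 to 39.7. The part of these cell types in the S100 values was not tested.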

How the data were processed

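RNA of articular cartilage of KO and WT mice (18 months) was sequenced by the authors as 3 KO and 3 WT libraries with unique molecular identifiers. Per the labels, the submitters' processing notes name cutadapt 1.9, HISAT2 2.0.4, UMI-tools, StringTie 1.3.4d, DESeq2 and edgeR. The study's methods describe strand-specific libraries. Whether reads were collapsed by molecular identifier and whether strand was used in counting is not given in the sources used here. The deposited table holds raw counts per gene and, beside them, FPKM values that the authors scaled to gene length and library depth.

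Members and gene lists were chosen with earlier results of these data known. Counts were tested with edgeR 4.0.16 (glmQLFit, glmQLFTest, TMM scaling, R 4.3.3) over genes that averaged 0.5 FPKM or more, with Benjamini-Hochberg adjustment over all tested genes and a threshold of 0.05. KO replicates 2 and 3 were averaged and rounded to 1 sample, by a rule that asked for a far smaller difference than in every other pair and named no number. DESeq2 1.42.0 and limma 3.58.1 on log2(FPKM + 1) and log2(FPKM + 0.1), other filters, other scaling and left-out libraries were alternatives. The fits were also run on simulated counts with the same variance setting for every gene, a simpler case than these data. The pass mark of that run was loosened after its outcome was seen, so it is no support for the results. Totals of 52268311 to 63331135 counts per library make counting error small beside the spread between samples. FPKM values are given per library, with SDs over 2 KO and 3 WT samples. Genes named are the 9 members, up to 3 genes with the smallest p per pathway list, up to 2 with the highest mean FPKM per cell type list, and the 5 nearest profiles among genes of at least 5 FPKM. Same-numbered KO and WT libraries were not paired (deviation correlations -0.21, -0.18 and 0.00). Promoter sequences are from RefSeq (GRCm38.p6), with a window for 8 of the 9 members. The knocked-out gene and 1 gene near S100a1 in profile are not reported here, and the KO labels are not checked in this text.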

Additional observations from a re-analysis of the deposited data

How the results depend on the processing

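The edgeR fit called 0 of all tested genes and 0 of the 9 S100 genes. The 6 libraries as labelled gave 570 genes and 1 S100 gene, DESeq2 877 and 2, no filter on low values 21 genes, and KO replicates 2 and 3 left out together 9 genes. Leaving out 1 library at a time gave 0 to 351 genes, the highest without KO replicate 1, and 0 S100 genes. The fit added after the data were seen, with KO replicate 1 left out and KO replicates 2 and 3 as 2 samples, gave 3371 genes and 3 S100 genes. It counts as 2 samples a pair that differed far less than any other, which leaves a small spread within KO. Median-of-ratios scaling, both limma fits and a minimum of 5 FPKM called 0 genes. The contrast of the myeloid with the chondrocyte pair was 0.64, with a range of 0.56 to 1.06 over single left-out libraries. It was 0.42 with KO replicates 2 and 3 left out together and 1.06 in the added fit. S100a8, S100a9, S100a6 and S100a11 stayed above 0 in all 16 alternatives.

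Some genes with a small difference in the edgeR fit of the 5 samples changed sign, and among them S100b and S100a7a moved furthest. With the 6 libraries as labelled S100a1 was at -0.058, S100a10 at -0.0028, S100b at -0.071 and S100a7a at -0.021, and limma on log2(FPKM + 0.1) gave -0.011 for S100b. In the added fit S100a1 was at -0.27, S100a4 at -0.033, S100a10 at -0.25, S100a13 at -0.13, S100b at -0.87 and S100a7a at -0.70. Over the left-out libraries S100a1 ranged from -0.27 to 0.25, S100a4 from -0.027 to 0.42, S100a10 from -0.25 to 0.25, S100a13 from -0.12 to 0.43, S100b from -0.87 to 0.40 and S100a7a from -0.71 to 0.35, each lowest without KO replicate 1. With KO replicates 2 and 3 left out together, these genes in the same order were at 0.30, 0.51, 0.40, 0.58, 0.83 and 0.81. The cause was not tested.

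With the replicate number as a block (6 libraries) 0 genes and 0 S100 genes were called. S100a1 was then at -0.052, S100a10 at -0.025, S100b at -0.31 and S100a7a at -0.16. Replicate numbers of KO and WT share no stated litter or batch, and same-numbered libraries did not deviate together.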
